A study of Homo sapiens with 8 samples.

Results

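The genes described here belong to the families of enzymes that write and erase methyl groups on histone lysines. They were chosen by name, so that some members, such as SETD3 and most PRDM genes, encode proteins known for other activities or with no established histone activity. Included were protein-coding genes whose symbol starts with KMT, KDM, SETD or PRDM, together with EZH1, EZH2, NSD1, NSD2, NSD3, EHMT1, EHMT2, SUV39H1, SUV39H2 and DOT1L. The annotation holds 64 such genes, of which 63 had a row of their own in the short-read table. Of these, 56 had 10 or more normalized counts in 3 or more libraries and were tested, among 12493 tested protein-coding genes and 26066 tested genes in all. Genes with a row that did not reach this level included KDM4E, KDM4F, KDM5D, PRDM9, PRDM13 and PRDM14. KDM4A had no row of its own, since the assembled row over it, chr1:43650149-43931165, fitted the span of a longer readthrough gene better. That row did not differ between the fractions (log2 fold change 0.04, adjusted p = 0.599).

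The cells were HAP1, an established near-haploid human line derived from the leukemia line KBM-7, grown without any treatment or genetic change named in the labels. Nuclei were extracted with urea and detergent, and the pellet and the supernatant were taken as the chromatin and the nucleoplasm fraction. There were 3 short-read libraries of each fraction from 3 cultures, and 2 long-read nanopore libraries of chromatin alone. The fraction of each library was read from its title, because another label names chromatin for all 8 libraries.

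Histone lysine methylation marks chromatin states. Methylation of H3K4 is found at promoters and enhancers, H3K36 and H3K79 methylation in transcribed genes, and H3K9, H3K27 and H4K20 methylation in repressed or compacted chromatin. The writers carry a SET domain, apart from DOT1L, and belong to the KMT2, EZH, NSD, SUV39, SETD and PRDM families. The erasers are the FAD-dependent KDM1 enzymes and the JmjC demethylases, which use iron and 2-oxoglutarate. The values below are amounts of nuclear RNA from these genes in a bulk population, in which fewer cells with an RNA and less RNA per cell cannot be told apart. They say nothing of the enzymes themselves.

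The 6 short-read libraries held 38895027 to 43804918 reads in chromatin and 75737601 to 79523938 in nucleoplasm. Replicate libraries of a fraction correlated over the tested genes with a Pearson r of at least 0.99. MALAT1 and NEAT1, 2 nuclear long noncoding RNAs, were higher in chromatin (log2 fold change 3.09 and 2.40), and the mRNAs of GAPDH and B2M were lower (-2.35 and -2.11), in the same directions under the other scalings used below. The rows of BCR and ABL1, the genes fused in this line, summed to 1602 to 1707 normalized counts in chromatin and 2639 to 2907 in nucleoplasm. Of the blood lineage markers, 5 of 8 had a row and none reached the filter. PTPRC, SPI1, GATA1 and MPO were at 0 in all 6 libraries, and CD33 reached at most 4.39. Of 5 fibroblast markers, COL1A2, DCN and LUM were at 0 and only COL1A1 was tested, with a mean of 470 normalized counts in chromatin and 794 in nucleoplasm. Its part in the results below was not tested.

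The first comparison asked how the RNA of each gene was divided between chromatin and nucleoplasm. Of the 56 genes, 23 were higher in chromatin, 21 were lower, and 12 did not pass (limma, Benjamini-Hochberg adjusted p under 0.05 over all tested genes). Over all tested genes, 44.2% were called higher and 45.2% lower, and over the tested protein-coding genes 30.2% higher and 57.5% lower. The median log2 fold change of the 56 genes was 0.01, beside -0.02 for all tested genes and -0.39 for protein-coding genes. The quartiles were -0.39 and 0.70. The chromatin and nucleoplasm libraries did not overlap for 49 of the 56 genes, while the share without overlap was 90.6% of all tested genes and 88.9% of protein-coding ones.

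The changes were moderate. At over 2-fold, 9 genes were higher in chromatin and 4 lower, which is 16.1% and 7.14% of the 56, beside 13.1% and 28.7% of protein-coding genes. No gene of the 56 passed a 4-fold limit with limma on log2(normalized count + 1). PRDM7 came nearest among the higher genes and KDM1B among the lower ones. With DESeq2, the tool the study used with this limit, and with edgeR, 1 gene passed it, which was PRDM7. Over 4-fold calls made up 21.2% (higher) and 8.47% (lower) of all tested genes, and 3.94% and 5.72% of the protein-coding genes.

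These directions depended on how the libraries were scaled. The size factors of the authors were used first. When the libraries were set to the same total of ERCC standards, which were added in equal volume to each fraction, the median of all genes moved to -1.33. Then 0 of the 56 genes were higher in chromatin and 47 were lower, with a median of -1.29. Set to the same total of gene reads, 36 were higher and 9 lower, with a median of 0.46 beside 0.44 for all genes. The share of higher among the called members was thus 52.3%, 0% and 80.0% under the 3 scalings, beside 34.5%, 5.65% and 52.6% for protein-coding genes. Relative to the median protein-coding gene, 42 of the 56 genes lay nearer to chromatin, and 41 and 43 under the other scalings. A change of scaling shifts the genes together, and their order is shown in the plot of fold changes by role.

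**Figure D1:**
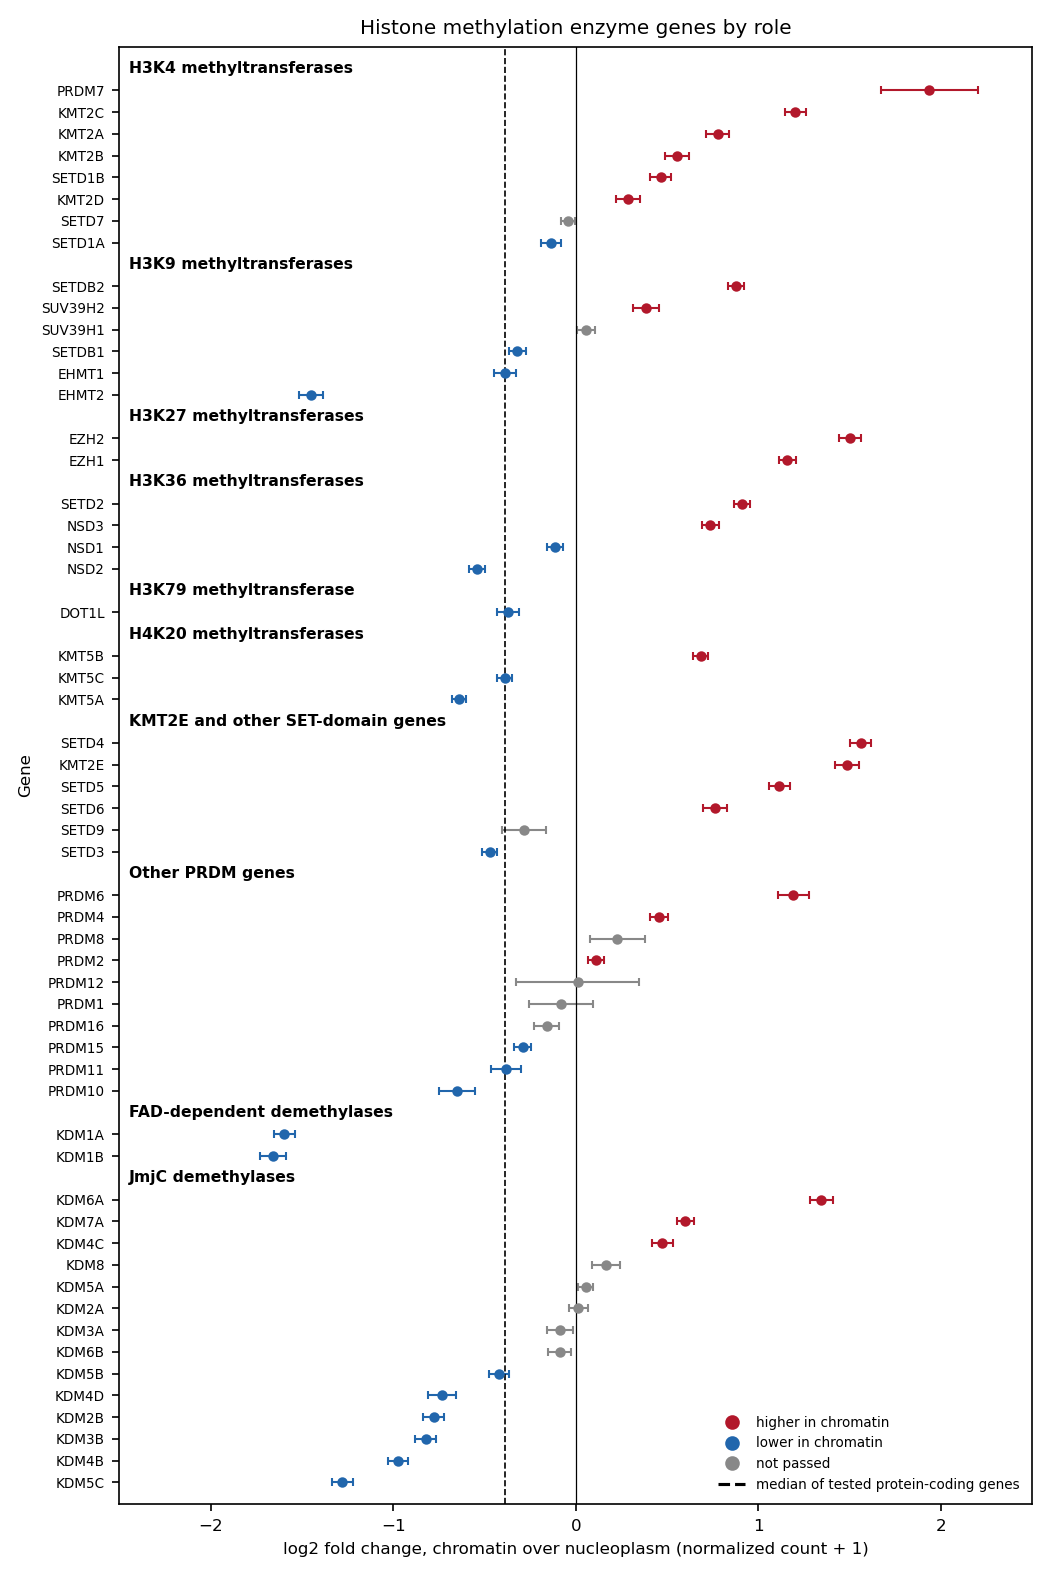
The log2 fold change of each of the 56 genes (points, with the standard error from limma, 3 libraries of each fraction) under the size factors of the authors, sorted within role classes, with the median of tested protein-coding genes at -0.39 as a dashed line. PRDM7, SETD4, EZH2 and KMT2E stood at the high end and KDM1B, KDM1A, EHMT2 and KDM5C at the low end, and with the same ERCC total no gene passed as higher.

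The H3K27 methyltransferases EZH1 and EZH2, the catalytic subunits of Polycomb repressive complex 2, were both among the 9 genes over 2-fold higher in chromatin. EZH2 had 13416, 15011 and 13010 normalized counts in chromatin and 4771, 4780 and 5051 in nucleoplasm. All chromatin libraries lay above all nucleoplasm libraries, by 1.50 ± 0.06 on the log2 scale (SE, adjusted p = 5.2e-08, limma). EZH1 had 2955, 2909 and 3034 in chromatin against 1326, 1285 and 1374 in nucleoplasm, again without overlap (1.16 ± 0.05, adjusted p = 4.8e-08). With the same ERCC total, the values of EZH2 and EZH1 were 0.18 and -0.16.

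Of the 8 H3K4 methyltransferases that were tested, PRDM7 passed the filter through chromatin alone and is left out of the count here. Of the other 7, 5 were higher in chromatin under the size factors of the authors and 1 was lower, beside 30.2% higher and 57.5% lower among protein-coding genes. Their median was 0.46, and -0.86 with the same ERCC total. The class holds the large COMPASS enzymes KMT2A to KMT2D, SETD1A and SETD1B, which methylate promoters and enhancers. Of these 6, 5 were higher and SETD1A was lower. KMT2C, an enhancer H3K4 monomethyltransferase, had 16301, 17597 and 16091 normalized counts in chromatin and 7705, 7045 and 6982 in nucleoplasm (1.20 ± 0.06, adjusted p = 1.3e-07). KMT2A followed at 0.78, then KMT2B at 0.56, SETD1B at 0.46 and KMT2D, the partner of KMT2C at enhancers, at 0.28. All 5 were below 0 with the same ERCC total. The row of KMT2A also holds a neighbouring gene, ENSG00000269944. SETD1A had 1202, 1083 and 1113 in chromatin and 1234, 1258 and 1238 in nucleoplasm, so that the fractions did not overlap but differed little (-0.14 ± 0.05, adjusted p = 0.041). SETD1A did not pass with edgeR (-0.11) or DESeq2 (-0.04).

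PRDM7 had the highest fold change of all 56 genes and one of the lowest levels. It had 23.3, 22.8 and 30.7 normalized counts in chromatin and 7.90, 4.30 and 5.91 in nucleoplasm (1.94 ± 0.27, adjusted p = 1.2e-04). It passed the filter only through the chromatin libraries, so that it had to be higher there. PRDM7 is a close copy of PRDM9, the meiotic H3K4 methyltransferase, and the reads of the pair may be divided between both rows. Its call is uncertain for these reasons, and it passed 4-fold with edgeR and with DESeq2 (2.18).

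**Figure D2:**
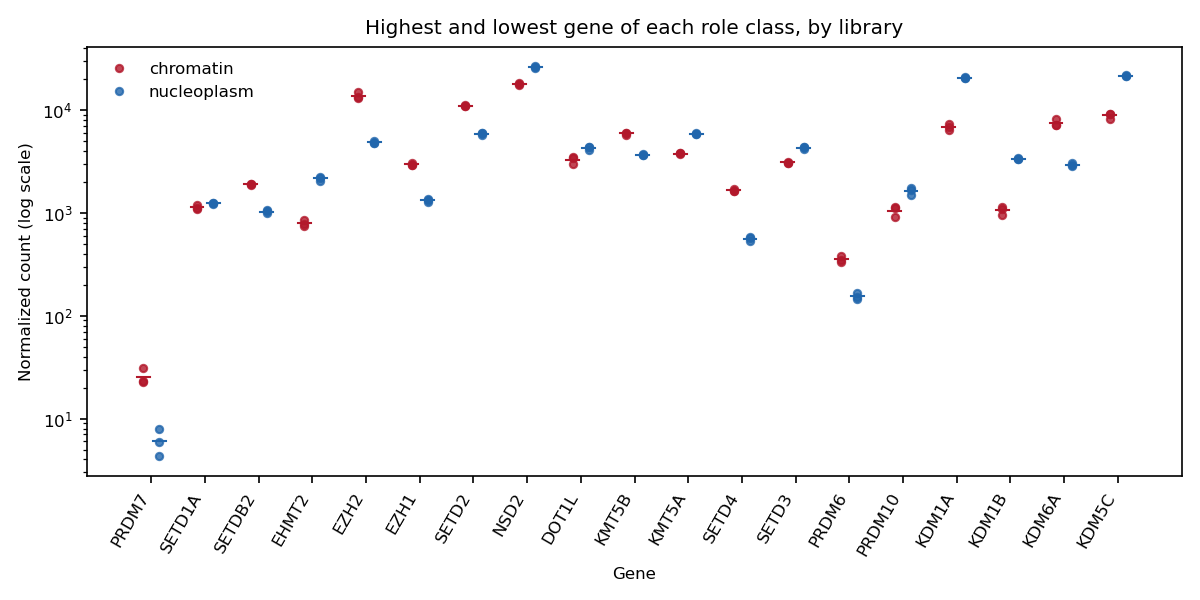
Normalized counts (log scale) of the genes with the highest and the lowest fold change in each role class, with 1 point per library (3 of each fraction) and the mean as a line. The fractions do not overlap for any gene shown, and the levels range from PRDM7 at 4.30 to 30.7 up to NSD2 at 26623.

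The H3K9 methyltransferases were divided. SETDB2 (0.88) and SUV39H2 (0.39) were higher in chromatin, while SETDB1 (-0.32), EHMT1 (-0.39) and EHMT2 (-1.45) were lower, and SUV39H1 did not pass (0.06, adjusted p = 0.316). The class median was -0.13, and -1.46 with the same ERCC total. EHMT2, known as G9a, forms with EHMT1 the main enzyme for H3K9 mono- and dimethylation. It had 776, 749 and 854 normalized counts in chromatin and 2037, 2203 and 2257 in nucleoplasm (-1.45 ± 0.07, adjusted p = 9.6e-08). EHMT2 stayed below 0 with the same ERCC total (-2.77) and with the same gene total (-0.99). SETDB2 had 1901, 1890 and 1911 in chromatin and 1061, 1037 and 1002 in nucleoplasm (0.88 ± 0.05, adjusted p = 2.1e-07). With the same ERCC total SETDB2 turned to -0.44 (limma, adjusted p = 0.034) and SUV39H2 to -0.94. The row of EHMT1 also spans the neighbouring gene ARRDC1.

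The H3K36 methyltransferases gave 2 genes on each side, beside 30.2% higher and 57.5% lower among protein-coding genes. SETD2, which makes H3K36 trimethylation during elongation, had 11107, 11344 and 10869 normalized counts in chromatin and 6021, 5978 and 5707 in nucleoplasm (0.91 ± 0.04, adjusted p = 1.3e-07). NSD2, a dimethyltransferase, had the highest normalized counts of the class, not corrected for length. They were 18548, 17684 and 17920 in chromatin and 26261, 25992 and 26623 in nucleoplasm (-0.54 ± 0.04, adjusted p = 3.6e-06). NSD3 sided with SETD2 (0.74), and NSD1 was lower by little (-0.11, adjusted p = 0.035). The values of SETD2 and NSD3 turned to -0.41 and -0.59 with the same ERCC total, and that of NSD1 to 0.35 with the same gene total. NSD1 did not pass with edgeR (-0.09) or DESeq2 (-0.02).

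DOT1L, the H3K79 methyltransferase, was lower in chromatin, with 3475, 3029 and 3416 normalized counts beside 4124, 4348 and 4338 in nucleoplasm (-0.37 ± 0.06, adjusted p = 4.0e-04), and at 0.09 with the same gene total. Among the H4K20 methyltransferases, KMT5A, which places the first methyl group, was lowest, with 3799, 3814 and 3727 in chromatin and 5868, 5940 and 5873 in nucleoplasm (-0.64 ± 0.04, adjusted p = 5.6e-07). KMT5B and KMT5C, which add the further methyl groups, parted: KMT5C was at -0.39, while KMT5B had 5734, 6044 and 6023 in chromatin and 3661, 3707 and 3709 in nucleoplasm (0.68 ± 0.04, adjusted p = 6.0e-07). With the same ERCC total KMT5B was at -0.64.

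The remaining SET-domain genes held some of the strongest chromatin values under the size factors of the authors. Of the 6, 4 were higher and 1 was lower, beside 30.2% and 57.5% of protein-coding genes. Their median was 0.94, which was -0.38 with the same ERCC total. SETD4 had 1622, 1725 and 1641 normalized counts in chromatin and 530, 575 and 584 in nucleoplasm (1.56 ± 0.06, adjusted p = 3.2e-08). KMT2E, a distant relative of the other KMT2 genes, was at 1.49, SETD5 at 1.12 and SETD6, an enzyme that methylates RELA, at 0.76. SETD4 and KMT2E stayed above 0 with the same ERCC total, at 0.24 and 0.16. SETD3, an actin histidine methyltransferase, was the lowest of the class, with 3077, 3146 and 3092 in chromatin and 4341, 4192 and 4384 in nucleoplasm (-0.47 ± 0.04, adjusted p = 6.4e-06). SETD9 did not pass (-0.28, adjusted p = 0.051).

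The other PRDM genes, mostly zinc finger proteins with a SET-like domain, were mixed, with 3 of 10 higher, 3 lower and 4 not passed. Among protein-coding genes 30.2% were higher and 57.5% lower. PRDM6 had 348, 383 and 335 normalized counts in chromatin and 147, 153 and 165 in nucleoplasm (1.19 ± 0.09, adjusted p = 1.6e-06), and was at -0.13 with the same ERCC total. The row of PRDM15 (-0.29) also holds C2CD2. PRDM10 was the lowest, with 1138, 913 and 1112 in chromatin and 1769, 1489 and 1692 in nucleoplasm (-0.65 ± 0.10, adjusted p = 2.3e-04). Libraries of the fractions overlapped for PRDM1, PRDM8 and PRDM12, which all had means under 60 normalized counts.

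The FAD-dependent demethylases showed the largest depletion. KDM1A, or LSD1, removes mono- and dimethyl groups from H3K4 within the CoREST complex, and KDM1B is its relative. KDM1A had 6813, 6397 and 7394 normalized counts in chromatin and 20631, 20348 and 21219 in nucleoplasm (-1.60 ± 0.06, adjusted p = 3.2e-08). KDM1B had 1143, 951 and 1105 in chromatin and 3366, 3315 and 3406 in nucleoplasm (-1.66 ± 0.07, adjusted p = 6.4e-08). Both stayed below 0 under every scaling, at -2.92 and -2.98 with the same ERCC total and at -1.13 and -1.20 with the same gene total.

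The JmjC demethylases gave 3 higher, 6 lower and 5 not passed of 14, beside 30.2% higher and 57.5% lower among protein-coding genes. Their median was -0.09, which was -1.41 with the same ERCC total and 0.38 with the same gene total. KDM6A, or UTX, an H3K27 demethylase found in the complexes of KMT2C and KMT2D, had 7172, 8174 and 7198 normalized counts in chromatin and 3096, 2865 and 2899 in nucleoplasm (1.35 ± 0.06, adjusted p = 1.1e-07). KDM6A was at 0.02 with the same ERCC total. At the other end stood KDM5C, an H3K4 demethylase, with 9188, 8258 and 9284 in chromatin and 21428, 21337 and 21988 in nucleoplasm (-1.28 ± 0.06, adjusted p = 7.1e-08). KDM4B (-0.97), KDM3B (-0.82), KDM2B (-0.78), KDM4D (-0.73) and KDM5B (-0.42) were also lower, and KDM7A (0.60) and KDM4C (0.47) higher, the last 2 being below 0 with the same ERCC total. KDM5A was at 0.06, in a row that also holds ENSG00000261799. Under the size factors of the authors, none of the 3 KDM5 genes was higher and 2 were lower, beside 30.2% and 57.5% of protein-coding genes. KDM5A gained a call with DESeq2. Of the 6 KMT2A to KMT2D and SETD1 genes that set the opposing mark, 5 were higher, all 5 being below 0 with the same ERCC total. The difference between those lists was not tested.

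Per kilobase of annotated exon, the genes spanned a wide range of levels. In chromatin SUV39H2 (1286 normalized counts per kb), EZH2 (1282) and SUV39H1 (1221) led, and SETD5 (1079) and NSD3 (1067) came next. In nucleoplasm the order was KDM5C (1751), KMT5A (1398), NSD2 (1292), SUV39H1 (1174) and KDM1A (1131). SUV39H1 thus stood near the top of both, and SUV39H2 and EZH2 differed in chromatin by less than their libraries did. PRDM12 (4.92), PRDM7 (5.99) and PRDM1 (7.78) were lowest in chromatin.

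Ratios of paralogs within a library do not depend on the scaling. Of 16 pairs listed, 15 could be formed, as KDM4A had no row. In 14 of the 15 the 3 chromatin ratios and the 3 nucleoplasm ratios did not overlap (exact two-sided permutation test, p = 0.1, the smallest that 3 against 3 libraries allow, and 0.107 after adjustment over the 15 pairs). Libraries of the fractions did not overlap for 88.9% of protein-coding genes either. No pair could pass at this number of libraries.

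The widest shift was between the H3K27 demethylases KDM6B and KDM6A. The log2 ratio of KDM6B to KDM6A was -3.21, -3.36 and -3.36 in chromatin and -1.94, -1.83 and -1.87 in nucleoplasm, a difference of -1.43 ± 0.06 (SE, n = 3 of each). SETDB2 to SETDB1 moved the other way, from -1.54, -1.56 and -1.55 in nucleoplasm to -0.38, -0.40 and -0.28 in chromatin (1.20 ± 0.04). KMT5C to KMT5B (-1.07 ± 0.04) and EHMT2 to EHMT1 (-1.06 ± 0.11) also differed by more than 2-fold. KMT2D to KMT2C differed by -0.92 ± 0.10 and NSD3 to NSD1 by 0.85 ± 0.05.

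Paralog pairs that kept their balance better were EZH2 to EZH1 (0.34 ± 0.08), SUV39H2 to SUV39H1 (0.33 ± 0.10) and KMT2B to KMT2A (-0.22 ± 0.06). KDM1B to KDM1A was the 1 pair whose libraries overlapped, with -2.58, -2.75 and -2.74 in chromatin and -2.62, -2.62 and -2.64 in nucleoplasm (-0.06 ± 0.06, exact p = 0.4).

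**Figure D3:**
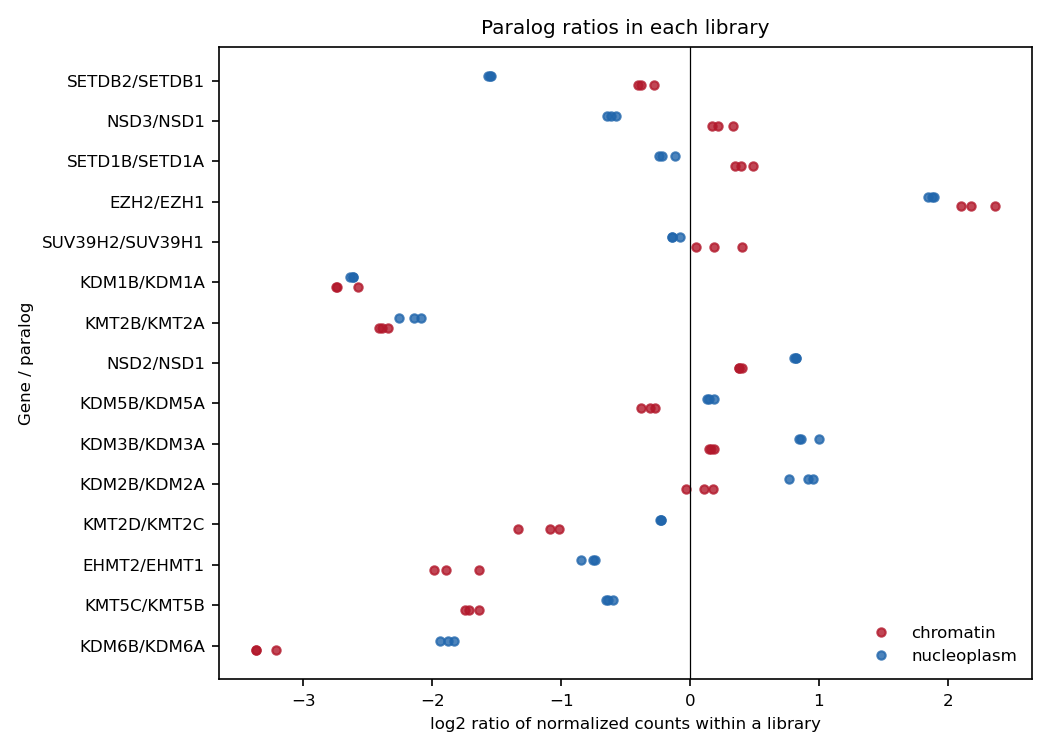
The log2 ratio of normalized counts of a gene to its paralog in each of the 3 chromatin and 3 nucleoplasm libraries (1 point each), sorted by the difference between the fractions. KDM6B to KDM6A has the lowest difference (-1.43) and SETDB2 to SETDB1 the highest (1.20), and only the points of KDM1B to KDM1A overlap.

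The gene models shared features that the rule did not use. The median span of the 56 genes was 72.9 kb, beside 37.8 kb for tested protein-coding genes, and the median number of exon blocks was 22.5 beside 11. Across the 12493 protein-coding genes, the fold change had a Spearman rho of 0.23 with the span and 0.34 with exonic length. Across the 56 genes these were 0.05 and 0.09, a description over genes that share the same libraries. Promoter sequences were found in RefSeq for 51 of the 56 genes. They held a median of 29 CpG in 300 bases, beside 26 for 9907 tested protein-coding genes and 14 for all 35116 promoters. At least 1 CpG (the letters CG, the same on both strands) was in 100% of those of the 51 genes, in 99.6% of those of tested protein-coding genes and in 96.0% of all promoters.

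RNA was also assembled inside introns of these genes, on the strand of the host. The table held 20 such loci, of which 11 in 6 hosts were tested. Of the 11, 10 were higher in chromatin, 9 of them over 4-fold, and 1 was lower. Over all tested genes 44.2% were called higher, and 21.2% over 4-fold higher. Of the 11, 4 passed the filter only through the chromatin libraries and had to be higher there. Of the other 7, 6 were higher and 5 over 4-fold higher. With the same ERCC total these 6 stayed above 0 (0.34 to 3.61). The median log2 fold change of all 11 was 3.22, and 2.07 with the same ERCC total. It includes the 4 whose direction was set by the filter. The difference between loci and host rows was not tested, and the counts are a description.

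The 3 loci with the highest mean level in chromatin lay in SETD5, KDM4C and PRDM10. The SETD5 locus (MSTRG.22294, chr3:9455345-9462353) had 1504, 1867 and 1401 normalized counts in chromatin and 117, 130 and 94.6 in nucleoplasm (3.80 ± 0.14, adjusted p = 3.2e-08). The KDM4C locus (MSTRG.33289, chr9:7049442-7064009) had 1234, 1518 and 1127 against 41.2, 39.6 and 43.9 (4.92 ± 0.12, adjusted p = 1.0e-08), and starts 242 bases past an exon. The PRDM10 locus (MSTRG.6248, chr11:129994477-130002383), which starts 339 bases past an exon of PRDM10, had 997, 1098 and 1052 against 100, 111 and 88.7 (3.38 ± 0.09, adjusted p = 1.2e-08). At all 3 every chromatin library lay far above every nucleoplasm library. Their hosts were at 1.12, 0.47 and -0.65, so that in PRDM10 the intron locus and the gene row went opposite ways. In chromatin the PRDM10 locus had 99.5% of the normalized counts of its host row and the KDM4C locus 48.6%.

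KDM6A held a pair of further loci, MSTRG.34870 at 4.19 and MSTRG.34871 at 3.72, with means of 99.1 and 59.3 normalized counts in chromatin and 4.57 and 3.45 in nucleoplasm. The long noncoding genes ENSG00000288748 in KDM6B (2.30) and ENSG00000227698 in PRDM15 (2.69) also passed the 4-fold limit. Both KDM6A loci and ENSG00000227698 passed the filter only through the chromatin libraries and had to be higher there.

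**Figure D4:**
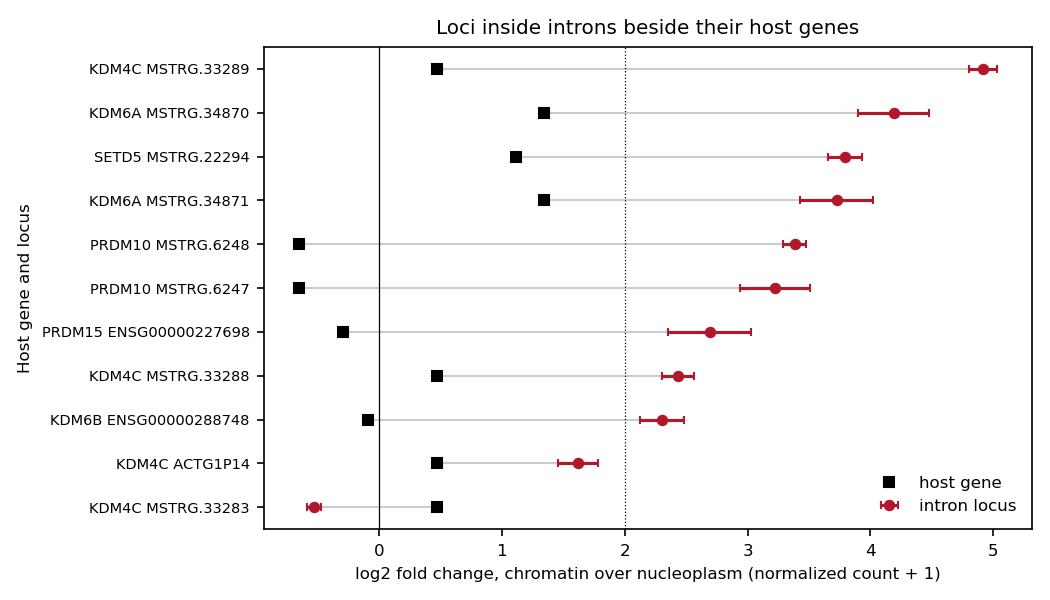
The log2 fold change of 11 loci inside introns (circles, with the standard error from limma) beside that of the host gene row (squares), 3 libraries of each fraction, with the 4-fold limit dotted. 10 of the 11 lie to the right of their host, 4 of which passed the filter only through the chromatin libraries. MSTRG.33283 in KDM4C lies to the left at -0.53.

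The locus that went against the others, MSTRG.33283 (chr9:6727654-6728069), had 397, 382 and 396 normalized counts in chromatin and 573, 580 and 542 in nucleoplasm (-0.53 ± 0.06, adjusted p = 3.3e-05). Its 416 bases differ from a transcript of RBMX, an RNA-binding protein gene, in 6 bases. The first 200 are shown with the bases that differ from the RBMX transcript in capitals.
KDM4C intron copy of RBMX, chr9:6727654-6727853, plus strand: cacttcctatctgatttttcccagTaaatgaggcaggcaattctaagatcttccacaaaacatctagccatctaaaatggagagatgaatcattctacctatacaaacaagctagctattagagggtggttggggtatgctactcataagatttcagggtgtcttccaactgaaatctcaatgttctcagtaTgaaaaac
The row of RBMX itself had 23057, 22659 and 23803 in chromatin and 25158, 26109 and 24763 in nucleoplasm (-0.13, adjusted p = 0.028). Reads of 50 bases cannot always be placed between such copies, so the origin of these counts is uncertain. The pseudogene ACTG1P14 in the same host, at 1.62, matches ACTB over its length with 87.4% identity, a more distant copy. The row of ACTB itself was at -1.95, in the other direction.

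Long noncoding genes named for their position beside a member were few. Of 11 with a row, 7 were tested, 6 were higher in chromatin and 1 did not pass. Over all tested genes 44.2% were called higher. PRDM10-DT, which runs away from PRDM10, was the 1 over 4-fold, with 50.1, 32.4 and 45.0 normalized counts in chromatin and 3.51, 5.17 and 6.76 in nucleoplasm (2.84 ± 0.28, adjusted p = 1.3e-05). It passed the filter only through chromatin, so that it had to be higher there. KDM4A-AS1 (1.25), KDM2B-DT (1.12), SUV39H2-DT (0.61), KDM7A-DT (0.46) and PRDM16-DT (0.33) followed, and all 5 were below 0 with the same ERCC total. KDM2B-DT was near the filter, with 14.0, 27.6 and 23.1 normalized counts in chromatin and 12.3, 7.75 and 7.60 in nucleoplasm. It would not have reached the filter without the chromatin libraries, so its call is uncertain. PRDM10 and KDM2B were themselves lower in chromatin.

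The start of the assembled divergent row lies within the promoter window of its host for PRDM10, SUV39H2 and KDM7A. It lies 103, 180 and 201 bases from the start of the host in RefSeq. The paper describes ends assembled from short reads as ambiguous. The promoters (RefSeq, GRCh38.p14, 250 bases before to 50 after the start, on the strand of the gene) are shown because a single window holds both starts there. Capitals mark CpG.
PRDM10, chr11:130002786-130003085, minus strand: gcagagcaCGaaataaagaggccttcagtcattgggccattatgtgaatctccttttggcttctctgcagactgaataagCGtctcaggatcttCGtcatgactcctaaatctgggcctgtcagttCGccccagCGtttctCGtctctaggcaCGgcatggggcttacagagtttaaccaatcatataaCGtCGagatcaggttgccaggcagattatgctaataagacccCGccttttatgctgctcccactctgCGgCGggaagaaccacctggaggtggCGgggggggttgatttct
SUV39H2, chr10:14878616-14878915, plus strand: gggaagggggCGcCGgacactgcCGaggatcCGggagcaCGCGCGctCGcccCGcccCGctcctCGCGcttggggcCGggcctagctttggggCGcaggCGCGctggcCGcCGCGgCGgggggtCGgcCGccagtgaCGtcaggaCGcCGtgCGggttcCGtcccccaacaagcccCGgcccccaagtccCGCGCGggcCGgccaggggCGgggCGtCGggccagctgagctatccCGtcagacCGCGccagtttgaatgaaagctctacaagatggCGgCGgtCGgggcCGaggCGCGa
KDM7A, chr7:140176934-140177233, minus strand: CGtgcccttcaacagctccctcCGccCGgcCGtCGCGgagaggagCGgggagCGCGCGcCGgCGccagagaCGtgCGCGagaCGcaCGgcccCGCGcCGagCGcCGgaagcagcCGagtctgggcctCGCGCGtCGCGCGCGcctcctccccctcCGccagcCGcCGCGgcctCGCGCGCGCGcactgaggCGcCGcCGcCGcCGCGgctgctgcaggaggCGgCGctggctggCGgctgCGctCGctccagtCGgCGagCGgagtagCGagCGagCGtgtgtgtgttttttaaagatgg
They hold 13, 44 and 56 CpG. Of all promoters, 51.7% have as many as that of PRDM10 or more, while 4.19% reach that of SUV39H2 and 0.276% that of KDM7A. The 13 of PRDM10 are below the medians of tested protein-coding genes (26) and of the 51 member promoters (29).

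A list of 63 partner genes of histone methylation was read under the size factors of the authors, with the other scalings beside it. Of these 56 were tested, 22 were higher in chromatin, 28 were lower and 6 did not pass, with a median of -0.13. Among tested protein-coding genes 30.2% were higher and 57.5% lower, with a median of -0.39. With the same ERCC total 1 partner gene was higher and 47 were lower. Of the 12 tested COMPASS subunits, 8 were lower, among them WDR82 (-1.61), MEN1 (-1.49) and ASH2L (-1.04), and 4 were higher, led by PAXIP1 (1.49) and HCFC2 (1.29). Their median was -0.76, and -2.08 and -0.29 under the other scalings. Under the size factors of the authors, the 7 H3K4 enzymes counted above had a median of 0.46 and protein-coding genes -0.39. These differences were not tested.

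The 8 tested subunits and partners of Polycomb repressive complex 2 had a median of 0.08, which was -1.25 with the same ERCC total, with SUZ12, a core subunit, at 0.73 and EPOP, an accessory subunit, at -1.15. Of 14 readers and partners of the H3K9 and H3K79 enzymes, 3 were higher, 8 were lower and 3 did not pass. Among protein-coding genes 30.2% were higher and 57.5% lower. The heterochromatin protein genes CBX1 (-2.32) and CBX3 (-1.37) and the corepressor TRIM28 (-1.74) were lower, while CBX5, the third of the heterochromatin protein genes, did not pass (0.02, adjusted p = 0.783), and ATF7IP, a partner of SETDB1, was higher (1.15). Partners of KDM1A went both ways. HDAC2 (-1.34), RCOR2 (-1.11) and HDAC1 (-0.84) were lower, RCOR3 (2.24) and PHF21A (1.24) higher, and RCOR1 did not pass (0.02, adjusted p = 0.746).

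The long reads of chromatin had been assigned to annotated transcripts of these genes by the authors. They are given as TPM, which keep no depth, and there was no second fraction to compare. Annotated transcripts of the member genes summed to 684 and 496 TPM in the replicates, over 222 transcripts, of which 109 (49.1%) were above 0 in both. Of the 56 tested genes, 55 were seen in at least 1 replicate and 49 in both. Over these 55 genes, the Spearman rho was 0.90 between the replicates, and 0.54 between mean TPM and the short-read chromatin level per kb, over genes that share libraries.

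EZH2 had the highest sum, 83.8 and 70.0 TPM, most of it in the coding transcript ENST00000320356.7 at 47.3 and 51.8. A transcript of EZH2 annotated for nonsense-mediated decay, ENST00000492143.5, held 26.2 and 15.1. By the mean of the replicates KDM5B came next with 37.0 and 55.9 TPM, followed by NSD3, whose replicates were far apart at 66.1 and 14.2. The leading transcript of KDM5B was the retained-intron form ENST00000648744.1 at 10.9 and 22.4, above the coding ENST00000367265.9 at 8.80 and 16.6. For KDM5A and KDM3A, coding transcripts led, with 29.3 and 24.2 and with 19.7 and 23.7. Over all member transcripts, coding forms took 73.6% and 75.0% of the TPM, retained-intron forms 18.5% and 17.5%, and decay forms 6.22% and 5.59%. The paper names nascent transcripts as a possible source of its many long-read transcripts inside introns. Whether the retained-intron forms here were unspliced RNA was not tested. The assigned form could change between replicates. For KMT2A, ENST00000534358.8 had 18.7 and 0 TPM and ENST00000389506.10 had 0 and 17.5. KDM1B, with the lowest fold change of the 56 genes, had 0.104 and 0.281 TPM, while KDM1A had 9.37 and 1.63. Genes that were higher in chromatin had values as low, such as SETDB2 (0 and 0.133) and SETD6 (0.292 and 0.0372).

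**Figure D5:**
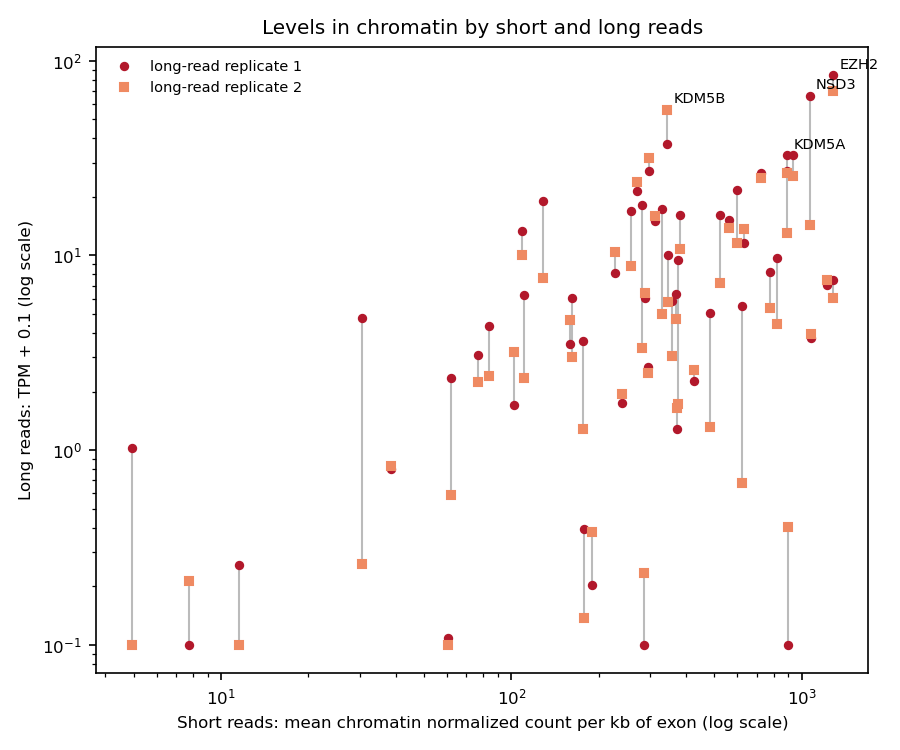
TPM + 0.1 of each member gene in the 2 long-read chromatin replicates (circles and squares, joined by a line) against the mean chromatin normalized count per kb of exon in the 3 short-read libraries, both axes on a log scale. EZH2 has the highest TPM and is second to SUV39H2 in the short-read level per kb (1282 beside 1286), and most genes differ little between the replicates beside the range of levels (Spearman rho 0.90).

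Unnamed long-read transcripts inside the introns of the genes were led by 1 in KDM4C, MSTRG.79244.1, with 122 and 202 TPM, above every annotated transcript of the members. Its 404 bases (chr9:6748553-6748956) match a transcript of SNRPE, a spliceosomal core protein gene, on the opposite strand with 12 differences. The first 200 bases are shown with the differences in capitals, because they show how near this copy is.
KDM4C intron copy of SNRPE, chr9:6748553-6748752, plus strand: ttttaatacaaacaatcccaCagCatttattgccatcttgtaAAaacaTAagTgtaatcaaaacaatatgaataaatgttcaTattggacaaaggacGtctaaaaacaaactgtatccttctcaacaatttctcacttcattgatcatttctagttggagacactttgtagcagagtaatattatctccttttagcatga
The annotated transcripts of SNRPE had 52.9 and 75.0 TPM, so reads of that mRNA cannot be told apart here from RNA of KDM4C. The next, in SETD4 (MSTRG.49215.2, chr21:36069960-36073176, 29.7 and 26.1 TPM), lies over CBR1, a gene on the other strand, and the strand of these reads is not certain. The third, MSTRG.51730.1 in SETD5 (chr3:9458818-9462756, 8.36 and 7.01 TPM), overlaps the short-read locus MSTRG.22294. Only unnamed transcripts inside an intron and on the strand of the host were matched to the 11 short-read loci. Of these loci, 2 had such a transcript, the other being ENSG00000288748 in KDM6B at 8.10 and 0.0276 TPM. The KDM4C locus MSTRG.33289 and the PRDM10 locus MSTRG.6248 had none of this kind. Transcripts given on the opposite strand that overlap a host exon were not counted. Among them, MSTRG.15048.1 (1.08 and 6.82 TPM) spans the PRDM10 locus, and MSTRG.83581.1 (4.78 and 2.14 TPM) overlaps the KDM6A locus MSTRG.34871.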

How the data were processed

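RNA of chromatin and nucleoplasm from 3 HAP1 cultures was measured by short reads, and chromatin RNA by long reads (2 libraries). The authors aligned short reads with HISAT2 2.1.0 to hg38 plus the ERCC sequences, assembled transcripts with StringTie, and scaled gene counts with DESeq2. The deposited short-read signal is these normalized counts. All values (100%) were whole multiples of the value of 1 read, which gave the depths. For long reads the authors deposited the TPM of each transcript, from minimap2 and StringTie, and how strand was assigned in that table is not given in the sources used here.

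Rows were named by GENCODE release 44, by stable identifier or by the same-strand gene of largest span overlap (Jaccard index 0.5 or more). Rows longer than 200 bases with 10 or more normalized counts in 3 or more libraries were tested on log2(normalized count + 1), which understates the change of low genes, with limma 3.58.1 under R 4.3.3, its trend option and no covariates. In a simulation of these 26066 genes, 184 of 200 genes changed by 1 (log2) were recovered and 12 unchanged genes called. The changed genes were few, well counted and evenly up and down, with no scaling shift. The simulation thus does not cover low genes or the choice of scaling. Further fits used the recovered reads (edgeR 4.0.16, DESeq2 1.42.0), other pseudocounts, filters and scalings, a replicate block, and fits that each lacked 1 library. A fit without rows that hold a neighbouring gene was chosen after seeing the data. Copies were searched with BLAST 2.17.0 (at least 80% of a locus). Library values are given for the genes with the highest and lowest fold change of each role class and discussed pairs, and, of intron loci and long-read transcripts, the 3 highest by level or fold. Members and lists were chosen with earlier results of these data known. Some items are not reported here.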

Additional observations from a re-analysis of the deposited data

How the results depend on the processing

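Scaling was the choice that moved these results. With the same ERCC total, 0 of the 56 genes were higher and 47 lower, 8 of them over 4-fold, and 1 partner gene was higher and 47 lower. With the same gene total, 36 were higher and 9 lower, 2 passed 4-fold (PRDM7 and SETD4), and 17 partner genes were lower. The direction turned with the same ERCC total for EZH1 (-0.16), KDM2A (-1.31), KDM4C (-0.85), KDM5A (-1.27), KDM7A (-0.72), KDM8 (-1.15), KMT2A (-0.55), KMT2B (-0.77), KMT2C (-0.12), KMT2D (-1.04), KMT5B (-0.64), NSD3 (-0.59), PRDM12 (-1.21), PRDM2 (-1.21), PRDM4 (-0.87), PRDM6 (-0.13), PRDM8 (-1.07), SETD1B (-0.86), SETD2 (-0.41), SETD5 (-0.21), SETD6 (-0.56), SETDB2 (-0.44), SUV39H1 (-1.27) and SUV39H2 (-0.94). It turned with the same gene total for DOT1L (0.0932), EHMT1 (0.0769), KDM3A (0.38), KDM5B (0.0440), KDM6B (0.38), KMT5C (0.0738), NSD1 (0.35), PRDM11 (0.0829), PRDM15 (0.17), PRDM16 (0.30), SETD1A (0.33), SETD7 (0.42) and SETDB1 (0.14). By construction, these scalings move all genes together.

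PRDM7 was the 1 gene past 4-fold with edgeR, DESeq2 and a pseudocount of 0.5, and over the fits without 1 library the number past 4-fold was 0 to 1 (PRDM7 without chromatin replicate 2 or nucleoplasm replicate 1). The calls of NSD1 and SETD1A were lost with edgeR, DESeq2 and the replicate block and without any 1 of the nucleoplasm libraries or chromatin replicate 3 (SETD1A also without chromatin replicate 2). That of PRDM2 was lost with the replicate block and without chromatin replicate 1 or any 1 nucleoplasm library. Calls were gained for KDM8 (edgeR, DESeq2, without chromatin replicate 2), KDM5A and SUV39H1 (DESeq2), PRDM16 (without chromatin replicate 2 or nucleoplasm replicate 1) and SETD9 (replicate block, a pseudocount of 5, a mean of at least 50, without chromatin replicate 3). Without 1 library, 22 to 24 genes were higher and 19 to 21 lower. The labels do not say whether the replicate numbers pair the libraries by culture. Deviations from the fraction mean correlated weakly between same-numbered libraries (r of 0.087, 0.053 and 0.063), but each library correlated best with its own number. The main fit used no pairing, and with the replicate block 22 genes were higher and 20 lower. In the 52 rows without a neighbouring gene, 22 were higher and 19 lower. KDM4B to KDM4A was not run, as KDM4A had no row. The number of intron loci over 4-fold was 9 in the fits without 1 library, 6 under the filter on a mean of 50, 6 with the same ERCC total and 10 with the same gene total. Of the 4 tested members with means under 60 normalized counts, PRDM1, PRDM8 and PRDM12 did not pass and PRDM7 did, and 3 libraries of each fraction give no paralog pair a p under 0.1.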
